A study of Mus musculus with 6 samples.

Results

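Cathepsins are proteases of the lysosome and cystatins are the small proteins that block the cysteine cathepsins. The genes described here were selected by name from the array's annotation: every symbol that starts with Cts or is Cst followed by a digit, together with Csta, Cstb, Lgmn, Ctla2a, Ctla2b and 4930486L24Rik. Of 18193 genes measured by a probe set with a single symbol, 36 were found in this way, and Csta gave no match. They comprised 23 Cts symbols, 9 Cst symbols, Lgmn, Ctla2a, Ctla2b and 4930486L24Rik. Each gene was read from its brightest probe set, picked by the mean over all arrays. Of the 36 genes, 19 had a mean above the limit for dim genes (log2 expression 6.64) and were tested, which left 17 dim. The dimmest gene tested was Ctla2b, with a mean of 6.995, and the brightest gene left out was Ctse, with 6.22. The names were drawn up with results of this comparison known, so the tests of these genes serve as a description.

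RNA of whole testes from 12-week-old mice was hybridised to 6 Affymetrix arrays, 3 labelled jsd and 3 labelled SCARKO-jsd. Both groups carry the jsd mutation of Utp14b, which halts spermatogonia, so that the tubules of adult males keep Sertoli cells and spermatogonia while later germ cells are scarce. In the SCARKO-jsd mice, spelled in other ways in some label fields, a gene has in addition been removed from Sertoli cells by a conditional knockout. The Cre driver of that knockout is not named in the labels, nor do they say whether a sample pools animals. The comparison asks which transcripts of a testis with few germ cells differ with that knockout.

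Cathepsins are made as inactive precursors, and a propeptide keeps the catalytic site closed until the acid of the lysosome releases it. Most are papain-like cysteine proteases, whereas cathepsins D and E are aspartic proteases and cathepsins A and G are serine enzymes. Sertoli cells use cathepsin L and other lysosomal proteases when they digest residual bodies and remodel their contacts with germ cells, and they secrete several cystatins. Rodents also have a family of cathepsin L relatives that is expressed mainly in the placenta. Ctla2a and Ctla2b resemble a free cathepsin propeptide and act as inhibitors of cathepsin L-like enzymes.

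The gene with the largest difference was 4930486L24Rik, which lies among the cathepsin L relatives on mouse chromosome 13. The 250 bases before its annotated start are shown because they hold a repeated motif, beside those of Ctla2b and Ctla2a, the other tested genes of that cluster. The sequences are RefSeq's, build GRCm38.p6, written in the direction of the gene. Capitals mark TCAAGGTC, a motif that receptors of the NR5A group recognise, searched on both strands.
4930486L24Rik, chr13:60864417-60864666, minus strand: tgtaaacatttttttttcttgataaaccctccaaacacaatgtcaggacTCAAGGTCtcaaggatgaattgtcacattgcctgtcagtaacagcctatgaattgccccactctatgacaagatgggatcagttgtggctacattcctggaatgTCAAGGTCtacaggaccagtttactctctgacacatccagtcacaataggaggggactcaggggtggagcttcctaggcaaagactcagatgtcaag
Ctla2b, chr13:60897448-60897697, minus strand: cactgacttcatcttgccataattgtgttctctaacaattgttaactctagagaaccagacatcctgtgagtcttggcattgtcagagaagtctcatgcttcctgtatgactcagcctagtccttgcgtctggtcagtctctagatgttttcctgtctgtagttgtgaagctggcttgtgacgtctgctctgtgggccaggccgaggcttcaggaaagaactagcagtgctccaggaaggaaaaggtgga
Ctla2a, chr13:60936626-60936875, minus strand: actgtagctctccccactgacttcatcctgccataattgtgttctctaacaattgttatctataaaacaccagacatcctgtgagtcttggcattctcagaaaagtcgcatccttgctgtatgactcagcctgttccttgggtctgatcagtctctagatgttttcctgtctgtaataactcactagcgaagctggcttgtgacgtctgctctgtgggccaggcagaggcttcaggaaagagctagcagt
The motif was chosen after the first of these sequences had been read. It occurred 2 times before 4930486L24Rik, at bases 201 to 194 and 97 to 90 ahead of the start. It was in neither of the other sequences shown, nor before any other of the 29 genes of the set that the table holds. Only this exact spelling was searched and counted. The window of Cst12 holds ccaaggtc, which differs from it in the first letter. Of 32851 such windows of 250 bases in the table, 307 (0.935%) held it at least once and 2 (0.00609%) held it 2 times. A general steroid receptor palindrome was in none of the 29 genes' windows and in 20 (0.0609%) of all windows. A match describes the letters only, and binding was not measured.

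On the arrays jsd 1, 2 and 3, log2 expression of 4930486L24Rik was 8.58, 8.82 and 8.62. On SCARKO-jsd 1, 2 and 3 it was 10.87, 11.18 and 10.88. All SCARKO-jsd arrays thus lay more than 2 log2 units above every jsd array, and the spread within a group was small (means 8.67 ± 0.125 and 10.98 ± 0.176, SD, n = 3). The difference, SCARKO-jsd minus jsd as throughout, was 2.31 ± 0.118 (SE), a 4.95-fold rise with a 95% interval of 2.03 to 2.58 on the log2 scale. By limma the Benjamini-Hochberg adjusted p was 0.000314 over all 10916 genes tested, and the rise was the 7th largest among them. Its jsd mean lay well above the dim limit. The gene has 1 probe set, so no other probes speak to its value. Probes of close relatives can share signal.

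It was the only gene of the set past the threshold, with 1 of 19 tested genes rising, 0 falling and 18 not passing. Among all tested genes 3.57% passed (390 of 10916), 1.78% higher and 1.80% lower, so the count for the set lies near the background. The median difference was 0.10 over the 19 genes and 0.04 over all tested genes. Differences were above 0 for 16 of the 19 genes, where 59.8% of all tested genes were above 0. The ranges of jsd and SCARKO-jsd were separate for 4 of the 19 (4930486L24Rik, Ctsk, Ctla2a and Ctsz), where 24.6% of all tested genes were so. An unadjusted p under 0.05 was found for the same 4 genes by limma, against 18.0% of all tested genes. Without 4930486L24Rik, which the naming rule lists by its own symbol, 0 of 18 passed and the median was 0.08. Of those 18, 15 were above 0, 3 had separate ranges, and 3 had an unadjusted p under 0.05 by limma. The 18 genes that did not pass had 95% intervals that lay between -0.42 (Ctso) and 0.65 (Ctsk), so each interval excluded a change of 1.6-fold.

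**Figure D1:**
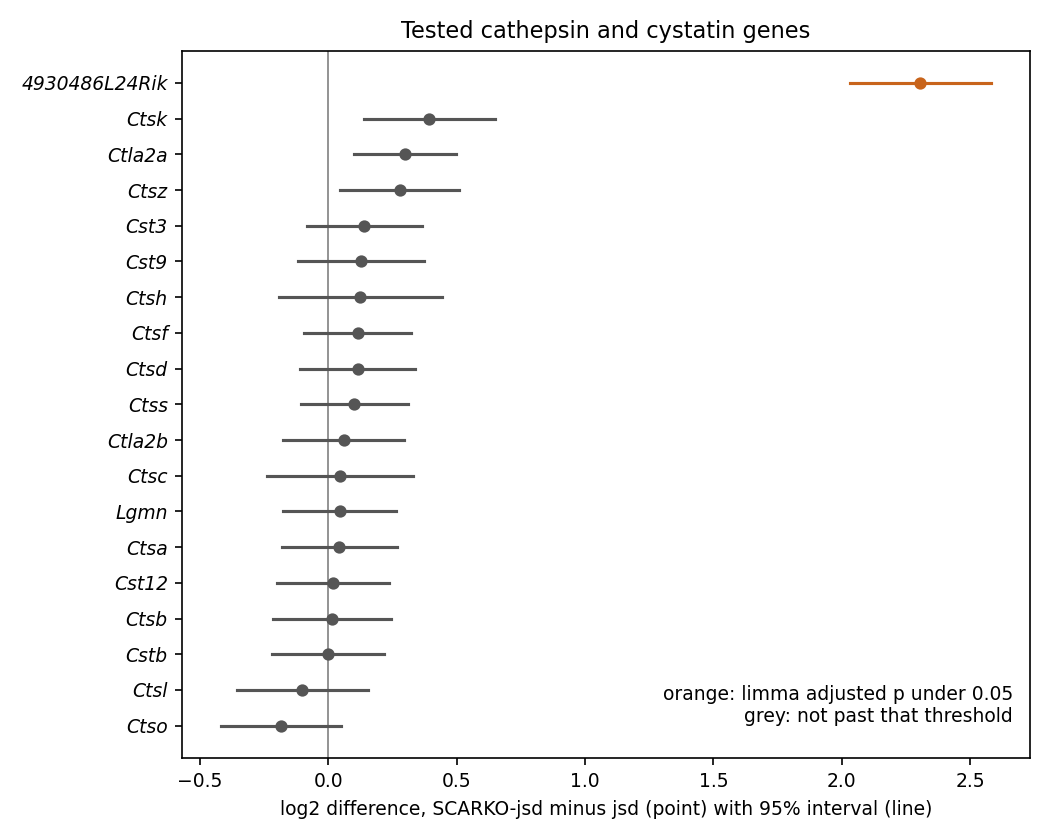
Difference in log2 expression (SCARKO-jsd minus jsd, point) with its 95% interval (line) for the 19 tested cathepsin and cystatin genes, from limma. 4930486L24Rik stands at 2.31 and is the only gene past the threshold, while the other 18 lie between -0.18 and 0.39.

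Array SCARKO-jsd 2 stood apart. Across genes, which are no independent replicates, it correlated with the remaining arrays at 0.9518 to 0.9726. Those arrays correlated with each other at 0.9728 to 0.9939, so the ranges were apart by a very narrow margin. The gap between 3' and 5' control probe sets of beta-actin was 1.66 log2 units on it and 0.70 to 0.98 on the others. For Gapdh that gap was 0.64 on SCARKO-jsd 2 and -0.29 to -0.1 on the others. Its median over all probe sets was 6.263, against 6.4 to 6.414. Among the SCARKO-jsd arrays SCARKO-jsd 2 gave the highest value for 13 of the 19 tested genes, and among the jsd arrays jsd 3 gave the lowest for 12. Without SCARKO-jsd 2, 4930486L24Rik still rose by 2.21 (adjusted p by limma 6.60e-05) and remained the only gene of the set to pass. The count over all genes moved to 768 without SCARKO-jsd 2 and to 78, 119, 239 and 141 without jsd 1, jsd 2, jsd 3 or SCARKO-jsd 3. No label ties an array to a mouse, and every p-value rests on the spread of 3 arrays in each group, part of which may be technical. In RNA of whole testes, fewer cells of a type and less RNA per cell cannot be told apart.

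The cystatins of the testis, which block cysteine cathepsins or resemble the proteins that do, gave bright signals with little difference. None of the 4 tested Cst genes passed the test, and their differences ran from -0.002 to 0.14 (median 0.07, against 0.04 over all tested genes). Cst12, a cystatin-related gene of the testis, was 13.99, 14.02 and 14.13 in the jsd arrays and 14.19, 13.99 and 14.02 in the SCARKO-jsd arrays. The groups overlapped, and the difference was 0.02 with a 95% interval of -0.20 to 0.24. Cst9, known as testatin and switched on in Sertoli cells of the fetal testis, was 13.75, 13.68 and 13.63 in jsd testes and 14.00, 13.72 and 13.71 in SCARKO-jsd testes. Its highest value came from SCARKO-jsd 1 and the other arrays lay close together (difference 0.13, interval -0.12 to 0.37).

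Cst3 encodes cystatin C, the main secreted inhibitor of cysteine cathepsins. Its log2 expression was 13.67, 13.75 and 13.52 in the jsd arrays and 13.76, 13.87 and 13.73 in the SCARKO-jsd arrays. Only SCARKO-jsd 3 fell inside the jsd range, and the difference of 0.14 had an interval of -0.08 to 0.36 (limma, Benjamini-Hochberg adjusted p = 0.495). Cstb encodes the cystatin of the cell interior. It was 13.01, 13.08 and 13.24 in jsd testes and 13.11, 13.15 and 13.06 in SCARKO-jsd testes, with a difference of -0.002 (interval -0.22 to 0.22). Its other bright probe set gave -0.006. These values lie near the top of the deposited scale, whose highest value was 14.84, and the brightness of different probe sets does not rank the transcripts.

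Ctsl, the widely expressed endopeptidase that gives the relatives on chromosome 13 their name, did not pass the test. Log2 expression was 14.11, 14.01 and 13.79 in the jsd arrays and 13.86, 13.96 and 13.78 in the SCARKO-jsd arrays. The ranges overlapped, and the difference was -0.10 with a 95% interval of -0.36 to 0.16. A second probe set was uneven within the groups, with 7.80, 6.54 and 6.66 in jsd testes and 6.55, 7.41 and 7.28 in SCARKO-jsd testes. Ctsb, a cysteine protease that also trims peptides from the end of proteins, was 13.28, 13.34 and 13.09 in jsd testes and 13.16, 13.30 and 13.29 in SCARKO-jsd testes. The difference was 0.01, and its 4 other probe sets, the last of them dim, gave -0.07, 0.12, 0.30 and -0.15. The groups were separate on the probe set that gave 0.30, which did not pass when every probe set was tested (limma, Benjamini-Hochberg adjusted p = 0.428).

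**Figure D2:**
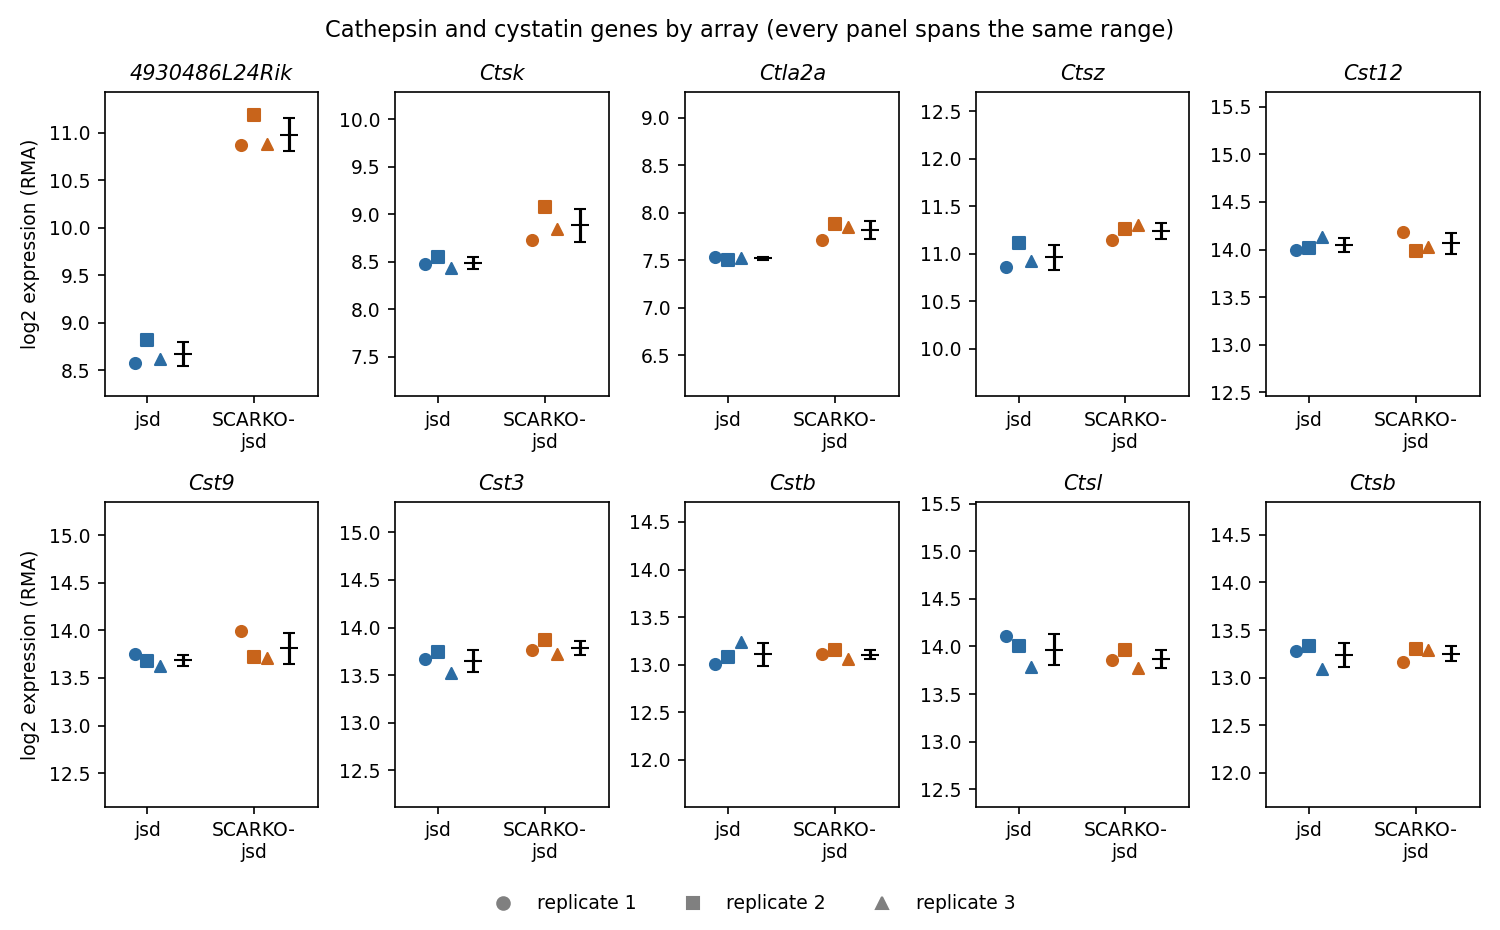
Log2 expression (RMA) on each array for 10 cathepsin and cystatin genes, with jsd in blue, SCARKO-jsd in orange, a symbol for each replicate number, and black bars for the mean and SD of 3 arrays. 4930486L24Rik lies at 8.58 to 8.82 in jsd testes and 10.87 to 11.18 in SCARKO-jsd testes. Ctsk, Ctla2a and Ctsz are separated by less, and the other 6 genes overlap.

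Cathepsins K and Z and Ctla2a were higher on every SCARKO-jsd array without passing the test. Ctsk, a strong collagenase best known from osteoclasts, was 8.48, 8.56 and 8.43 in jsd testes and 8.72, 9.07 and 8.85 in SCARKO-jsd testes. The highest value was that of SCARKO-jsd 2, and the difference was 0.39 ± 0.11 (SE; limma, Benjamini-Hochberg adjusted p = 0.110), or 0.30 without that array (adjusted p = 0.0975). Ctsz, a carboxypeptidase of phagocytic cells, was 10.86, 11.11 and 10.92 in jsd testes and 11.15, 11.26 and 11.31 in SCARKO-jsd testes. The difference was 0.28 ± 0.10 (SE; limma, Benjamini-Hochberg adjusted p = 0.200). Its other probe sets, which the choice of the brightest did not use, gave 0.31 and 0.41, and on both the groups did not overlap. In the fit of every probe set neither passed (limma, Benjamini-Hochberg adjusted p = 0.384 and 0.295), where 0.280% of 45037 probe sets did.

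Ctla2a was 7.53, 7.51 and 7.52 in the jsd arrays and 7.72, 7.89 and 7.85 in the SCARKO-jsd arrays. The jsd arrays were close to each other (SD 0.014), and the difference was 0.30 ± 0.086 (SE; limma, Benjamini-Hochberg adjusted p = 0.119). Its close copy Ctla2b was 6.90, 6.91 and 7.08 in jsd testes and 7.06, 6.89 and 7.12 in SCARKO-jsd testes, with a difference of 0.06. A probe set annotated to both gave 7.88, 7.75 and 7.90 in jsd testes and 7.93, 7.96 and 8.003 in SCARKO-jsd testes. There the groups did not overlap by a narrow gap and the difference was 0.12. Probes of such copies can share signal, so how the difference divides between them is uncertain.

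The other lysosomal proteases of the set differed by less than 0.2 either way on their brightest probe sets, and none passed the test. Ctss, the cathepsin of antigen-presenting cells, was 10.69 to 10.90 in jsd testes and 10.90 to 10.94 in SCARKO-jsd testes, with a difference of 0.10 (95% interval -0.11 to 0.31). Ctsd, the main aspartic protease of the lysosome, had a difference of 0.11 (-0.11 to 0.34). Ctsh, an aminopeptidase, gave 0.12 (-0.19 to 0.44) and 0.22 on its other bright probe set. Ctsf, a papain-like cathepsin, gave 0.11. Lgmn encodes legumain, which cuts after asparagine and processes other cathepsins. It was 11.96, 11.91 and 11.84 in jsd testes and 11.83, 12.05 and 11.96 in SCARKO-jsd testes, a difference of 0.04.

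Ctsc, which activates the serine proteases of immune cell granules, differed by 0.05 (interval -0.24 to 0.33). Ctsa, a serine carboxypeptidase that shields beta-galactosidase and neuraminidase in the lysosome, differed by 0.04 (-0.18 to 0.27) and by -0.12 on its other bright probe set. Ctso, another papain-like cathepsin, had the lowest difference of the tested genes, -0.18 (-0.42 to 0.05). It was 10.98, 11.04 and 10.86 in jsd testes and 10.73, 10.92 and 10.67 in SCARKO-jsd testes, where SCARKO-jsd 2 lay inside the jsd range. Its other bright probe set gave -0.13.

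Over the 12 genes with more than 1 probe set there were 17 further probe sets, 10 of them above the dim limit. Those 10 gave differences from -0.13 to 0.41, and 0 of the 17 passed the test over every probe set (limma, lowest Benjamini-Hochberg adjusted p = 0.295), while 3 had an unadjusted p under 0.05.

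**Figure D3:**
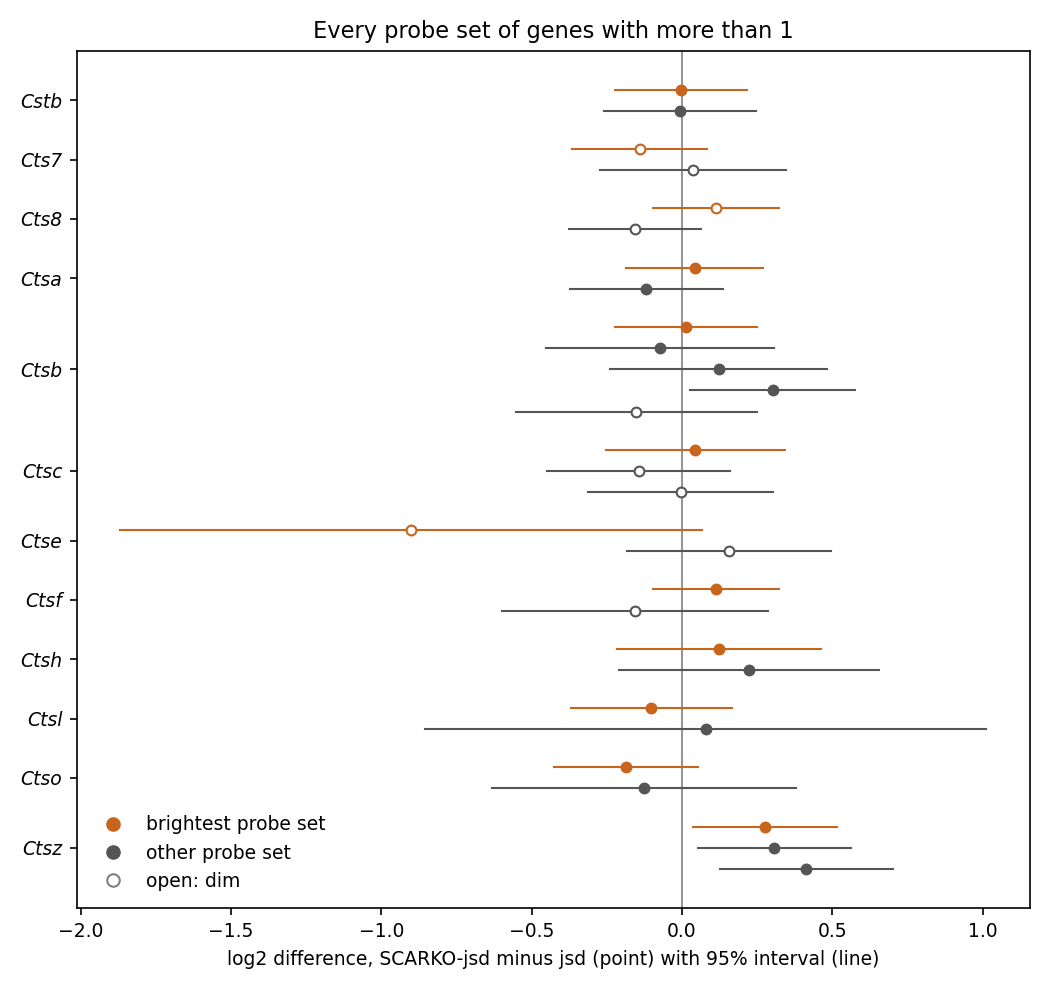
Difference in log2 expression (SCARKO-jsd minus jsd, point) with its 95% interval (line) for each probe set of the 12 genes with more than 1, the brightest in orange, the others in grey, and dim probe sets as open points. The 3 probe sets of Ctsz give 0.28, 0.31 and 0.41, and those of Ctsb spread from -0.15 to 0.30.

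The 17 dim genes included the placental cathepsins Cts3, Cts6, Cts7, Cts8, Ctsj, Ctsm, Ctsq and Ctsr, whose brightest probe sets lay between 3.20 and 5.12 on all arrays. Such dim values give no level, and these genes differed by -0.14 to 0.18. Ctsg, a serine protease of neutrophil granules, Ctsw, a cathepsin of cytotoxic lymphocytes, and Cst7, a cystatin of leukocytes, had means of 4.90, 6.14 and 4.53. Ctsll3, Cst6, Cst10, Cst11 and Cst13 were dim too. Ctse, the aspartic cathepsin E, was uneven, with 6.09, 7.44 and 6.49 in jsd testes and 6.09, 5.16 and 6.06 in SCARKO-jsd testes. Its brightest probe set thus differed by -0.90 and its other, also dim, by 0.16, which is the opposite sign. Cst11, a cystatin of the epididymis, was the only dim gene whose groups did not overlap (4.86 to 5.15 in jsd testes and 5.19 to 5.85 in SCARKO-jsd testes), where 14.4% of all dim genes did not overlap.

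Of the 36 genes, 13 lie on chromosome 13 and 9 on chromosome 2, and most of these sit in a cluster on each. The chromosome 13 cluster runs from Ctsll3 to Cts3 and holds 22 RefSeq genes, 14 of them measured and 3 tested. In RefSeq order 4930486L24Rik is the gene after Ctsll3 and is followed by Ctla2b, Tpbpb and Ctla2a. The difference of 2.31 at 4930486L24Rik stood beside 0.04 at Ctsll3, which was dim, and 0.06 at Ctla2b, and no other measured gene of the cluster exceeded 0.30. Ctsl lies on the same chromosome outside this cluster.

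The chromosome 2 cluster runs from Cst11 to Cst10, with 13 RefSeq genes, 8 measured and 5 tested. It holds Cstdc1 and Cstdc2, cystatin domain genes whose symbols fall outside the naming rule and which were looked at after the values were seen. Cstdc1, the gene between Cst11 and Cst12, was 11.19, 11.14 and 11.70 in jsd testes and 12.45, 12.11 and 12.32 in SCARKO-jsd testes. It rose by 0.95 ± 0.166 (SE), 1.93-fold (limma, Benjamini-Hochberg adjusted p = 0.0254). No call was made when jsd 1 or 2 or SCARKO-jsd 1 or 3 was left out (adjusted p by limma of at most 0.132) or when every probe set was tested, while the call held without SCARKO-jsd 2 (adjusted p by limma 0.0100). Cstdc2, between Cst9 and Cst3, was uneven in both groups and differed by 0.02 (95% interval -0.63 to 0.68).

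**Figure D4:**
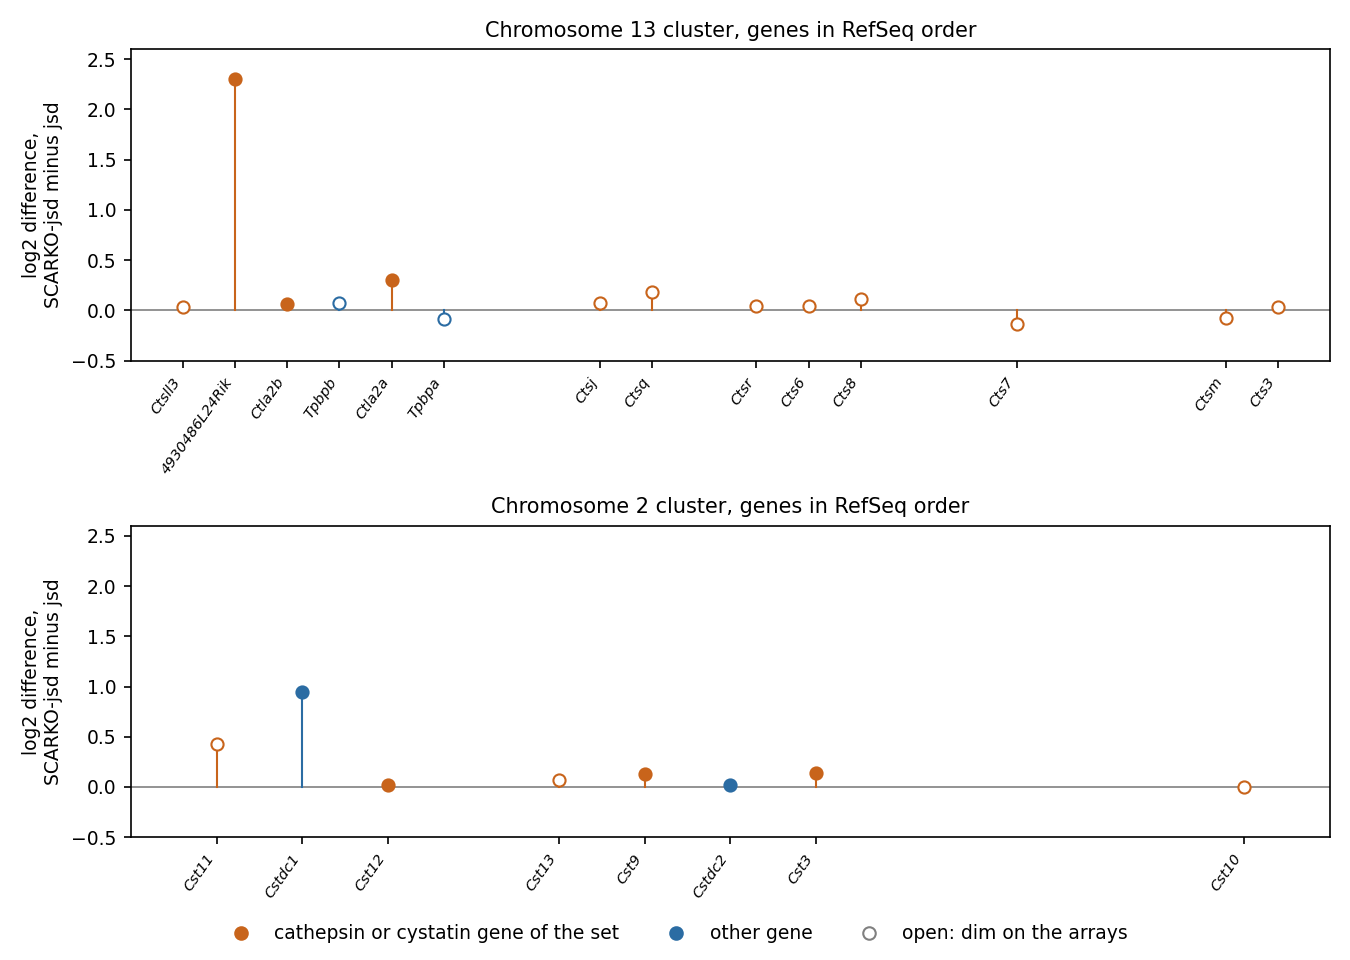
Difference in log2 expression (SCARKO-jsd minus jsd) of each measured gene in the chromosome 13 and chromosome 2 clusters, in RefSeq order with unmeasured genes left as gaps, genes of the set in orange, other genes in blue and dim genes as open points. 4930486L24Rik at 2.31 and Cstdc1 at 0.95 stand above their neighbours.

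Genes that work beside the cathepsins and cystatins were read from lists drawn up with earlier results known. In the wider cystatin superfamily 4 of 6 measured genes were dim. Of the other 2, Ahsg, whose product fetuin A carries cystatin domains, was 5.79, 5.42 and 5.86 in jsd testes and 7.70, 8.42 and 8.02 in SCARKO-jsd testes, with means of 5.69 and 8.04. All jsd arrays lay below the dim limit, and the gene passed the filter through the SCARKO-jsd arrays alone, so no test of it is given. Among 31 lysosomal hydrolases and cofactors 1 rose, 0 fell and 30 did not pass, with a median of 0.17 against 0.04 over all tested genes. As 3.57% of all tested genes passed, that count lies near the background. An unadjusted p under 0.05 by limma was found for 8 of the 31, against 18.0% of all tested genes. The ranges were separate for 9, against 24.6%, and differences were above 0 for 22, against 59.8%. The gene that rose was Glb1, the beta-galactosidase that cathepsin A shields, at 9.69, 9.96 and 9.63 in jsd testes and 10.24, 10.75 and 10.43 in SCARKO-jsd testes. Its difference was 0.72 ± 0.151 (SE; limma, Benjamini-Hochberg adjusted p = 0.0475), and no call was made when jsd 1, 2 or 3 or SCARKO-jsd 3 was left out (limma, adjusted p up to 0.203). The call also ended with no filter on dim genes, with averaged probe sets, with every probe set and with median centring.

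None of 25 genes of the lysosome membrane, sorting and regulation passed the test by limma, and 2 had an unadjusted p under 0.05. Among all tested genes 3.57% passed and 18.0% had an unadjusted p under 0.05. The smallest p was that of Cln3, a lysosomal membrane protein, with a difference of 0.37 (adjusted p by limma 0.0559). Cln3 passed without SCARKO-jsd 2 (adjusted p by limma 0.0289), with the lowest 60% of genes left out, and with arrayWeights. None of 5 other lysosomal proteases and none of 3 papain-like relatives passed, with 0 and 0 at an unadjusted p under 0.05. Their smallest p values belonged to Cpq, a carboxypeptidase (0.26; limma, Benjamini-Hochberg adjusted p = 0.327), and Pigk (-0.24; adjusted p = 0.299), the papain-related subunit that attaches membrane anchors.

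Markers of the cells that could carry these genes are given as values, and their part in the results was not tested. Of 19 tested Sertoli cell markers, Cst9 and Cst12 among them, Tsx and Wt1 fell, 0 rose and 16 did not pass. Among all tested genes 3.57% passed, 1.80% lower and 1.78% higher. The remaining marker, Rhox5, had means of 10.14 in jsd testes and 5.795 in SCARKO-jsd testes. Its SCARKO-jsd arrays lay below the dim limit and it passed the filter through the jsd arrays, so no test of it is given. With Rhox5 counted, 5 of the 19 had an unadjusted p under 0.05 by limma, against 18.0% of all tested genes. The ranges were separate for 7, against 24.6%. Rhox5 is in both counts and entered the list of tested genes through its jsd arrays. Neither count is therefore read as a difference from these shares. The summed level of the list was 16.64 to 16.74 in jsd testes and 16.58 to 16.67 in SCARKO-jsd arrays (log2). None of 20 macrophage markers passed by limma (1 at an unadjusted p under 0.05, Fcer1g), with summed levels of 14.93 to 15.03 and 14.82 to 15.05. None of 8 Leydig cell, 7 peritubular myoid and 1 tested lymphoid marker passed either, with 0, 0 and 0 at an unadjusted p under 0.05, and of 8 endothelial markers Kdr fell and 7 did not pass. Those 7 all had differences above 0, against the direction of Kdr, where 59.8% of all tested genes were above 0. The median of the 8 was 0.22, against 0.04 over all tested genes. An unadjusted p under 0.05 by limma was found for 2 of the 8. Pecam1 and Tie1 of that list were dim. Tsx passed with any single array left out. Wt1 and Kdr passed only when SCARKO-jsd 2 was the array left out (adjusted p by limma of at most 0.187 and 0.175 otherwise). Both calls also ended with every probe set and with median centring, and that of Wt1 with a replicate block.

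Of 20 measured meiotic and spermatid markers 14 were dim, Prm2, Tnp1, Tnp2 and Acrv1 among them, and Sycp3 and Meig1 rose by 1.31 and 0.84. They were 2 of 6 tested, where 1.78% of all tested genes rose. An unadjusted p under 0.05 by limma was found for 3 of the 6, against 18.0% of all tested genes. Sycp3 passed with any single array left out, and Meig1 did not when jsd 1 or 2 or SCARKO-jsd 1 was removed (adjusted p by limma of at most 0.0969) or when every probe set was tested. The summed level of that list was 11.01 to 11.17 in jsd arrays and 11.25 to 11.50 in SCARKO-jsd arrays. Without Sycp3 and Meig1 it was 10.69 to 10.91 and 10.73 to 11.02, and the groups overlapped. Of 15 granulocyte and mast cell markers 14 were dim, Elane, Mpo and Cpa3 among them. Camp, an antimicrobial protein whose propeptide has a cystatin fold, was 6.02, 6.03 and 6.92 in jsd testes and 7.60, 7.71 and 7.50 in SCARKO-jsd testes. Its jsd mean of 6.32 lay below the dim limit and it passed the filter through the SCARKO-jsd arrays, so no test of it is given. The summed level of the list was 9.04 to 9.19 in jsd arrays and 9.31 to 9.52 in SCARKO-jsd arrays, and without Camp it was 8.85 to 8.90 and 8.79 to 9.04, where the groups overlapped. Of 10 measured epididymis markers 9 were dim, and Lcn2, the only one tested, had a difference of 0.22 (adjusted p by limma 0.201). Its ranges were separate, as were those of 24.6% of all tested genes. Its unadjusted p by limma was 0.026, where 18.0% of all tested genes were under 0.05. Among the alternatives Lcn2 passed only with trend and robust.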

How the data were processed

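The table deposited by the authors gives log2 expression for each probe set. The submitters' processing notes name RMA and the affy package without a version. RMA is meant to bring all arrays to 1 distribution, which can hide a change shared by most transcripts. In the deposited values the array medians still ran from 6.263 to 6.414, so the arrays did not fully share 1 distribution. With median centring 263 genes passed over all tested genes, against 390 without it. The deposited table has 45101 probe sets, of which 64 are controls. In GEO's platform annotation 34958 have 1 gene symbol, 932 have several and 9211 have none. RefSeq (GRCm38.p6) served for gene order and for sequences before gene starts. All 36 genes of the set matched it, and 29 had such a sequence.

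For each of 18193 genes the brightest single-symbol probe set was used, and the lowest 40% by mean were left out, which left 10916. Genotype was tested two-sided with limma 3.58.1 (lmFit and eBayes) in R 4.3.3, with Benjamini-Hochberg adjustment over all tested genes and a threshold of 0.05. Intervals of 95% are those of the same fit, without adjustment. Every probe set was also tested in a fit over all 45037 that are no controls. The genes and lists were chosen with earlier results of these data known. Values by array are given for genes that passed or differed by 1.5-fold, the 6 brightest genes, and genes whose arrays did not overlap or that illustrate a point. Of each list the called genes with the smallest p are named, up to 4, or else the gene with the smallest p.

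The alternatives were other filters (none, lowest 60%), averaged probe sets, every probe set, median centring, a further quantile normalization, trend and robust, arrayWeights, a replicate block and each array left out. Same-numbered arrays were not taken as pairs. Their deviations from the group means correlated at -0.212, 0.233 and 0.243, within the range of -0.388 to 0.345 for arrays with different numbers. The fit was tested on simulated data with known changes. The target of the conditional knockout is not reported here. Plots used matplotlib 3.10.9 (Python 3.11.15).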

Additional observations from a re-analysis of the deposited data

How the results depend on the processing

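4930486L24Rik passed the threshold under all 15 alternatives, at a difference of 2.19 to 2.38 (limma, Benjamini-Hochberg adjusted p 3.88e-05 to 0.00563), and it was the only gene of the set to pass in each. Ctsk, Ctla2a, Ctsz, Cst3, Cst9, Cst12, Cstb, Ctsb and Ctsl passed under none of those that tested them, and Ctla2a was dim when the lowest 60% of genes were left out. Their lowest adjusted p was 0.0549, for Ctla2a. Differences under 0.05 in size, as for Cst12 (-0.04 to 0.06), Cstb (-0.05 to 0.06) and Ctsb (-0.06 to 0.06), took either sign. The count over all genes, 390, was 126 for every probe set, 860 with arrayWeights, whose estimate stopped before it converged, and 78 to 768 with 1 array left out. With a replicate block it was 397, and 4930486L24Rik stayed at 2.31 (adjusted p = 0.000234). The block changed no call among the genes of the set but ended that of the Sertoli cell marker Wt1, and not every array correlated best with its own number. The share of called genes that were higher was 49.7%, and it ran from 39.1% without SCARKO-jsd 2 to 62.8% without SCARKO-jsd 1, with 57.0% under median centring. Dim signal kept 17 of the 36 genes out of the test.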
